A study of Sus scrofa with 22 samples.

Results

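In the mononuclear fraction of pig blood, 10 platelet genes were followed: PPBP, SELP, ITGB3, ITGA2B, ITGA2, GP9, CLU, THBS1, RGS18 and SPARC. All probe sets annotated to exactly 1 of these symbols were taken, which gave 16 probe sets for 10 genes, out of 24123 probe sets on the array, 124 of them control probe sets. THBS1 had 5 probe sets, ITGA2 and SPARC had 2 each, and the remaining 7 genes had 1 each. A gene with several probe sets is described by its brightest over all arrays, and the others are given beside it.

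Platelets are anucleate fragments of megakaryocytes that carry megakaryocyte transcripts into the circulation. They adhere to collagen and to von Willebrand factor at a damaged vessel wall, aggregate through fibrinogen bound by the integrin that ITGA2B and ITGB3 form together, and release proteins stored in their alpha granules. Platelets sediment more slowly than leukocytes and can remain in the layer of mononuclear cells collected on a density gradient, free or bound to monocytes, so that their RNA is part of what such preparations contain.

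The samples were peripheral blood mononuclear cells of mini pigs, prepared from heparinised blood on a Histopaque gradient. The H-F+RES group (4 arrays) received chow with 20% beef tallow and 8 mg of resveratrol, a plant polyphenol, per kg body weight per day for 9 months. The H-F group (4 arrays) received the 20% tallow chow alone for 9 months, and the control group at 9 months (4 arrays) a chow with 5% tallow. Each of these groups held 2 females and 2 males. The controls at time 0 were 5 females and 5 males (10 arrays). They are labelled as basal samples of the control group, whose chow had 5% tallow and no resveratrol. The 22 arrays came from 20 pigs, since the labels give pigs 8 and 25 at both times, and the ages of the pigs are not given in the sources used here. Values are log2 of the deposited intensities, and a difference of 1 on this scale is a doubling. Tests were made with limma over the 17240 probe sets with a log2 value above 5 in at least 2 arrays, and a call means a Benjamini-Hochberg adjusted p of 0.05 or less over all of them.

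Of the defining platelet genes on the array, PPBP, SELP, ITGB3 and ITGA2B had mean log2 intensities of 9.09, 7.79, 9.38 and 9.46 over the 22 arrays, each above at least 70.8% of all probe sets. Among the other cell types of blood, the 6 T cell markers measured averaged between 10.7 and 11.89 and the 6 monocyte markers between 8.78 and 11.1, so RNA of lymphocytes and monocytes was present in all preparations. The 4 erythroid markers averaged between 8.97 and 10.8, and the 5 granulocyte markers between 4.96 and 8.60. Arrays of the same condition and sex correlated with r between 0.973 and 0.994 (26 pairs). The array of control female 8 at 9 months stood apart in platelet genes, so results that rest on it are given with and without it. In a mixed sample of this kind, fewer platelets and less RNA per platelet cannot be told apart.

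All 10 genes had at least 1 probe set that passed the filter on low values, and 15 of the 16 probe sets were tested. The exception was the dimmer ITGA2 probe set (Ssc_16218_1_A1_at), which stayed between 2.96 and 4.22. The genes differed widely in how much they varied between arrays. PPBP spanned 6.05 log2 units from its lowest to its highest array and CLU 5.58, both wider than 99.9% of the probe sets tested. ITGA2 spanned 4.64, ITGB3 4.25, SELP 3.67, ITGA2B 3.13, THBS1 2.99 and RGS18 2.47. GP9, which encodes the glycoprotein IX subunit of the von Willebrand factor receptor, spanned 0.70, wider than 27.9% of the probe sets tested, and the brighter SPARC probe set 0.53, wider than 9.0%.

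**Figure D1:**
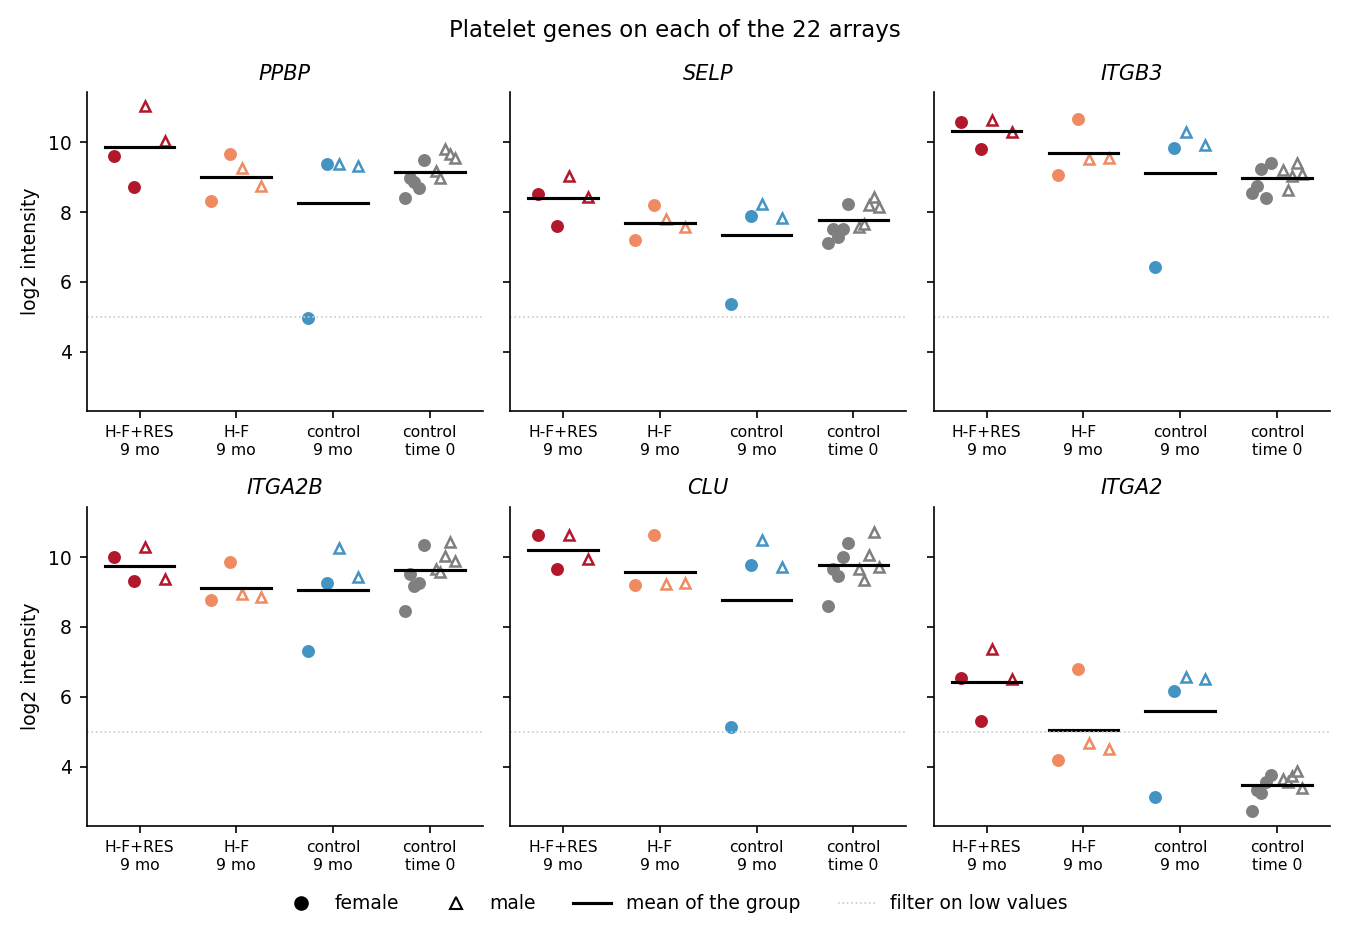
Log2 intensity of 6 of the platelet genes on each array (vertical axis), by condition, with females as filled circles, males as open triangles, the mean of each group as a bar and the filter on low values at 5 as a dotted line. One control female at 9 months lies far below all other arrays for PPBP, SELP, ITGB3, ITGA2B and CLU, and ITGA2 lies between 2.73 and 3.88 on all 10 arrays of time 0.

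PPBP encodes the chemokine precursor that platelets store in alpha granules and process to a neutrophil attractant. Its log2 intensity was 9.60, 8.73, 11.02 and 10.04 in H-F+RES pigs, 8.32, 9.65, 9.26 and 8.75 in H-F pigs, 4.97, 9.36, 9.37 and 9.33 in controls at 9 months, and 8.41 at the lowest, 9.07 at the median and 9.81 at the highest in controls at time 0. One array, that of female 8 among the controls at 9 months, stood far below the rest, and the other 21 overlapped between all 4 conditions. The highest value belonged to male 4 of the H-F+RES group.

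SELP encodes P-selectin, the granule membrane protein that binds activated platelets to leukocytes. It was at 8.52, 7.61, 9.04 and 8.42 in H-F+RES pigs, at 7.21, 8.20, 7.81 and 7.57 in H-F pigs, at 5.37, 7.89, 8.24 and 7.82 in controls at 9 months, and between 7.10 and 8.43 with a median of 7.62 at time 0. The low array was again that of control female 8 at 9 months. Male 4 of the H-F+RES group was again the highest.

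The integrin subunits showed the same low array. ITGA2B was at 10.01, 9.30, 10.29 and 9.38 in H-F+RES pigs, 8.78, 9.87, 8.95 and 8.86 in H-F pigs, 7.31, 9.27, 10.27 and 9.42 in controls at 9 months, and between 8.46 and 10.44 with a median of 9.61 at time 0. ITGB3 was at 10.58, 9.81, 10.64 and 10.29 in H-F+RES pigs, 9.06, 10.67, 9.51 and 9.56 in H-F pigs, 6.42, 9.82, 10.30 and 9.92 in controls at 9 months, and between 8.41 and 9.41 with a median of 9.05 at time 0. The highest ITGB3 value of time 0 lay below 10 of the 12 values of 9 months, whereas ITGA2B at time 0 spanned all later values but that of female 8. GP9 ran from 7.35 to 7.92 in H-F+RES pigs, 7.43 to 7.67 in H-F pigs, 7.21 to 7.85 in controls at 9 months and 7.32 to 7.82 at time 0, so that the 4 conditions overlapped.

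CLU encodes clusterin, a chaperone and complement regulator that platelets store in alpha granules. It was at 10.63, 9.66, 10.62 and 9.94 in H-F+RES pigs, 9.19, 10.62, 9.24 and 9.27 in H-F pigs, 5.13, 9.76, 10.49 and 9.72 in controls at 9 months, and between 8.60 and 10.71 with a median of 9.69 at time 0. Apart from control female 8 at 9 months, the conditions overlapped. RGS18 encodes a regulator of G protein signalling that restrains platelet activation. It ranged from 8.37 to 10.26 in H-F+RES pigs, 8.07 to 9.33 in H-F pigs, 7.80 to 9.39 in controls at 9 months and 8.30 to 9.74 at time 0, with control female 8 lowest and H-F+RES male 4 highest here too.

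The array of control female 8 enters every comparison with the controls of 9 months. Control female 8 at 9 months had the lowest of 22 values for 9 of the 15 member probe sets tested, whereas 772 of all 17240 (4.48%) were lowest on that array. Its PPBP was at 4.97 against 8.32 for the lowest of the other 21 arrays, and its CLU at 5.13 against 8.60. Its ITGB3 was at 6.42 against 8.41, its SELP at 5.37 against 7.10, and its ITGA2B at 7.31 against 8.46. These 5 probe sets were among the 63 of 17240 (0.365%) that lay more than 1 log2 unit below every other array. RGS18 (7.80 against 8.07) and GP9 (7.21 against 7.32) were lowest by less. The dim THBS1 probe set Ssc_924_1_A1_at (4.09 against 4.14) and the dimmer SPARC probe set (3.73 against 4.29) made up the 9. The brightest THBS1 probe set was not low, at 10.01 within a range of 8.20 to 11.18 for the other arrays, and neither was the brighter SPARC probe set at 6.95. ITGA2 was at 3.14, far below its 3 companions of the group but within the range of time 0.

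Against the other 3 control arrays of 9 months, the same array was not low in markers of T cells, monocytes, granulocytes or NK cells. T cell markers averaged 10.83 on it and between 10.81 and 11.00 on the other 3 control arrays of 9 months, and monocyte markers 9.66 against 9.62 to 10.13. Granulocyte markers averaged 5.90 against 5.72 to 6.02, and NK and cytotoxic markers 8.90 against 8.71 to 9.39. Over all 22 arrays T cell markers ran from 10.67 to 11.56 with a median of 11.145. NK and cytotoxic markers ran from 8.71 to 9.92 with a median of 9.39, so the array was in the lower part of both. The B cell marker CD79B was above its companions, at 10.04 against 9.04 to 9.63. The erythroid markers were the lowest of the 22 arrays, at 7.93 against 8.76 to 9.55 in the other 3. Its RNA gave an actin 3' minus 5' value of 2.52, where the other 3 gave 1.04 to 2.30, and its correlation with each of the other arrays over all probe sets was between 0.948 and 0.982. The part of B cell and erythroid RNA and of RNA quality in the low platelet values was not tested.

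**Figure D2:**
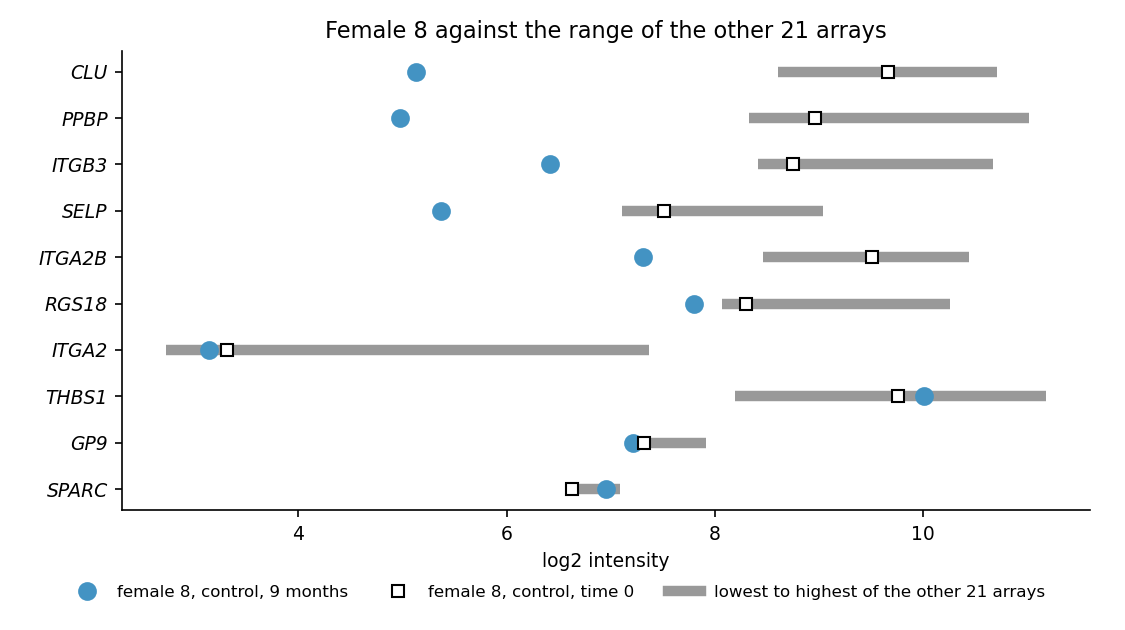
Log2 intensity (horizontal axis) of the brightest probe set of each gene on the array of control female 8 at 9 months (blue circle), on the array of the same pig at time 0 (open square) and over the other 21 arrays (grey bar, lowest to highest). CLU, PPBP, ITGB3, SELP and ITGA2B lie more than 1 log2 unit below the bar at 9 months, while THBS1, ITGA2 and SPARC lie within it. The bar includes the time 0 array of the same pig, so the open square cannot lie outside it.

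Female 8 and male 25 are the pigs that the labels give at both times. In female 8, CLU was 23.2-fold lower at 9 months than at time 0 (5.13 against 9.66), and PPBP 15.9-fold lower (4.97 against 8.96), which placed them 4th and 9th among the falls of all 17240 probe sets. ITGB3 was 5.04-fold, ITGA2B 4.61-fold and SELP 4.41-fold lower. At time 0 all of these lay within the range of the other pigs. In male 25 the mean of PPBP, SELP, ITGB3, ITGA2B and GP9, called the platelet mean below, differed by -0.09 log2 units between 9 months and time 0, compared with -2.15 in female 8. CLU differed by -0.005 in male 25. Each of these is 1 pair of arrays, with no replicate of the pair.

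The order of the conditions by the platelet mean was H-F+RES at 9.17 ± 0.49 (SD, n = 4), then time 0 at 8.62 ± 0.37 (n = 10), H-F at 8.60 ± 0.44 (n = 4) and controls at 9 months at 8.26 ± 1.35 (n = 4). Without female 8 the controls of 9 months averaged 8.92 ± 0.24 (n = 3) and took the second place. Neighbours in either order differed by less than the pooled SD within groups of 1 condition and sex, 0.603.

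The first question of the design was whether resveratrol alters expression on the high-fat diet. No member passed the test for H-F+RES against H-F: limma called 0 of the 15 member probe sets and 0% of all 17240, and 1 member (ITGA2) had an unadjusted p under 0.05, compared with 6.63% of all. Of the 10 genes, 8 had a positive difference, GP9 at 0.004 among them, and the median was 0.63. Over all probe sets tested the median was 0.02 and 54.2% were positive. Most members moved together between arrays, so their signs are not separate evidence. PPBP differed by 0.85 ± 0.61 (SE), SELP by 0.70 ± 0.41, ITGB3 by 0.63 ± 0.53, ITGA2B by 0.63 ± 0.44 and CLU by 0.63 ± 0.73. RGS18 differed by 0.50 ± 0.29 and GP9 by 0.004 ± 0.13. ITGA2, the collagen-binding subunit of the integrin with beta 1, had the highest difference, 1.39 ± 0.59 (adjusted p = 0.736), with H-F+RES higher in 13 of 16 pairs of arrays. Without H-F female 30 it was 2.10, and 3 of the 4 H-F values were below the filter level of 5. THBS1 differed by -0.61 ± 0.33 and SPARC by -0.12 ± 0.09, while the dimmer SPARC probe set differed by -1.39 ± 0.85 (adjusted p = 0.826).

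The second question was whether the high-fat diet itself alters expression. For H-F against control at 9 months limma called 0 members and 0% of all, and 1 member probe set, the dimmer one of SPARC (1.95 ± 0.85, adjusted p = 0.498), had an unadjusted p under 0.05, against 9.06% of all. The signs for PPBP, CLU, ITGB3 and SELP rested on control female 8. With her, PPBP differed by 0.74 ± 0.61, CLU by 0.81 ± 0.73, ITGB3 by 0.59 ± 0.53 and SELP by 0.37 ± 0.41. Without her, the same differences were -0.27 ± 0.36, -0.40 ± 0.41, -0.29 ± 0.31 and -0.23 ± 0.29. The difference in the platelet mean was 0.35 with her and -0.27 without her, and ITGA2 differed by -0.55 ± 0.59 with her and by -1.34 ± 0.47 (adjusted p = 0.259) without her. Monocyte markers averaged 9.13 ± 0.18 in H-F pigs and 9.77 ± 0.25 in controls at 9 months (SD, n = 4 each), and their part in these differences was not tested.

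For H-F+RES against control at 9 months limma called 0 members and 0% of all probe sets, with 3 members (PPBP, SELP and ITGB3) and 3.85% of all at an unadjusted p under 0.05. PPBP differed by 1.59 ± 0.61, CLU by 1.44 ± 0.73, ITGB3 by 1.22 ± 0.53, SELP by 1.07 ± 0.41 and ITGA2B by 0.68 ± 0.44. Without control female 8 these became 0.58 ± 0.36, 0.23 ± 0.41, 0.34 ± 0.31, 0.47 ± 0.29 and 0.14 ± 0.38, and the difference in the platelet mean became 0.29 in place of 0.91. The 3 diet comparisons share arrays, so they are not separate evidence of each other.

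**Figure D3:**
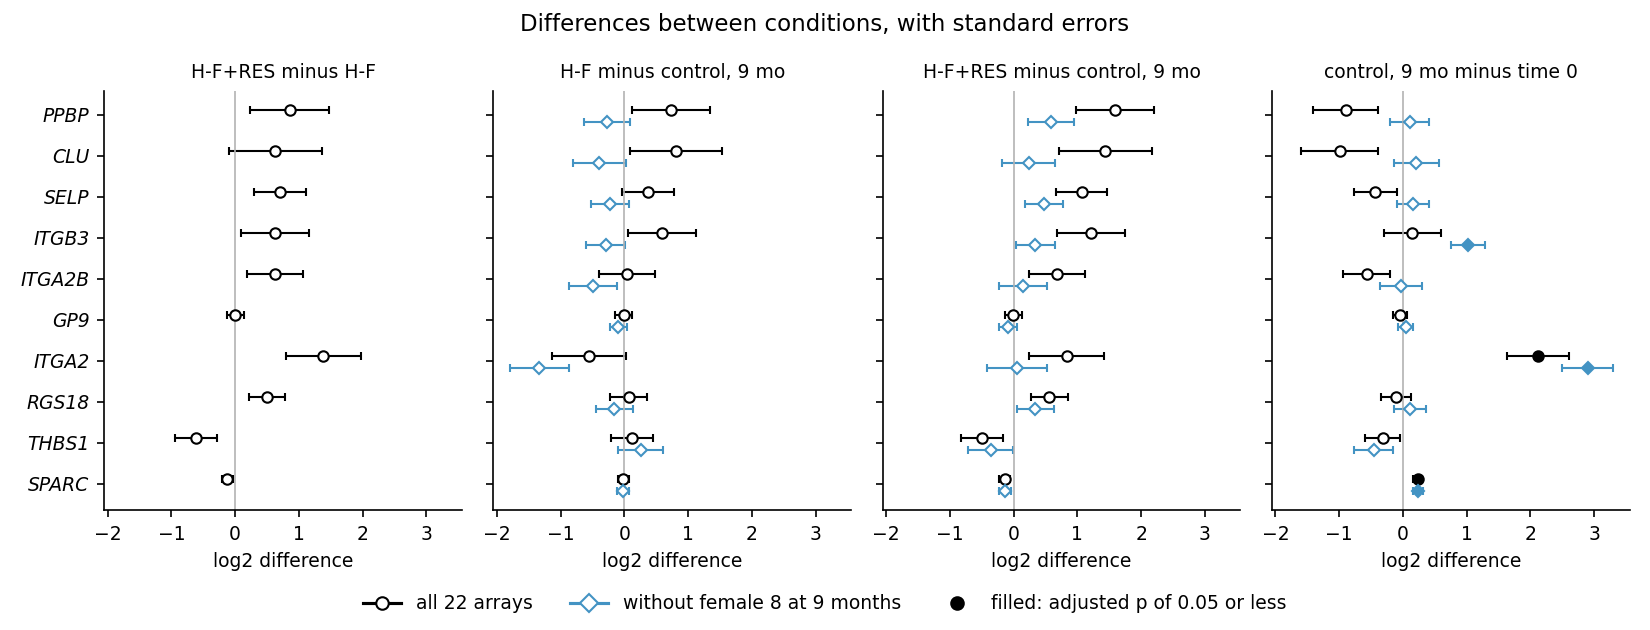
Log2 difference of each gene's brightest probe set (horizontal axis) with its standard error, in 4 comparisons, with all arrays (black circles) and without control female 8 at 9 months (blue diamonds), where filled symbols have an adjusted p of 0.05 or less. PPBP, CLU and SELP change sign without that array in the comparisons of H-F with control and of 9 months with time 0, and ITGA2, whose values at time 0 are all below the filter level, lies to the right in the comparison of 9 months with time 0 either way.

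Between the controls of 9 months and those of time 0, limma called 3 of the 15 member probe sets, a share below the 35.0% of all probe sets called in that comparison. The brighter SPARC probe set rose by 0.23 ± 0.07 on the log2 scale (adjusted p = 0.0157). The other 2 passed the filter on low values mainly through the time at which they were brighter, so their differences are given as a description. ITGA2 differed by 2.12 ± 0.49 (adjusted p = 0.00227, and 0.00266 with no filter), with values above 5 on 8 arrays, all of 9 months. The dim THBS1 probe set Ssc_924_1_A1_at differed by -0.45 ± 0.15 (adjusted p = 0.0229, and 0.0273 with no filter), with values above 5 on 5 arrays, 4 of them of time 0. PPBP differed by -0.90 ± 0.51, CLU by -0.99 ± 0.61, SELP by -0.44 ± 0.34, ITGA2B by -0.57 ± 0.37, ITGB3 by 0.15 ± 0.45, RGS18 by -0.11 ± 0.24 and GP9 by -0.04 ± 0.11, none of them called. Without control female 8 the differences were 0.11 for PPBP, 0.21 for CLU and 0.16 for SELP, of the other sign. Without control female 18, which leaves female 8 as the only control female of 9 months, the adjusted p of PPBP was 0.0406.

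ITGA2 was at 3.14, 6.18, 6.57 and 6.50 in controls at 9 months, and at 2.73 at the lowest, 3.55 at the median and 3.88 at the highest in the 10 controls of time 0. Of the 4 later arrays, 3 therefore lay above every array of time 0, and that of control female 8 lay among them. The other diets of 9 months were above time 0 throughout, at 6.55, 5.31, 7.37 and 6.51 in H-F+RES pigs and 4.19, 6.80, 4.68 and 4.52 in H-F pigs. Without control female 8 the difference of controls at 9 months from time 0 was 2.90 ± 0.40. In male 25 ITGA2 was at 6.50 at 9 months, against 3.39 at time 0. All 10 values of time 0 lay below the level of 5 that the filter on low values uses, close to the dimmer ITGA2 probe set (mean 3.33 at time 0), so no fold is given against them.

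ITGA2 still moved with the other platelet genes among pigs of 1 time. Its correlation with the platelet mean was r = 0.827 over the 10 arrays of time 0 and r = 0.896 over the 12 of 9 months, as against r = 0.606 over all 22 together. The 22 arrays come from 20 pigs, and the ITGA2 values of time 0 are all dim. Set against the platelet mean, ITGA2 was -2.73 ± 0.37 log2 units in H-F+RES pigs (SD, n = 4), -3.56 ± 0.77 in H-F pigs (n = 4), -2.66 ± 0.34 in controls at 9 months (n = 4, female 8 included) and -5.13 ± 0.21 at time 0 (n = 10). The value of time 0 takes ITGA2 below the filter level on every array. Within the H-F group, female 30 was at -2.41, and the other 3 pigs between -3.98 and -3.91.

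**Figure D4:**
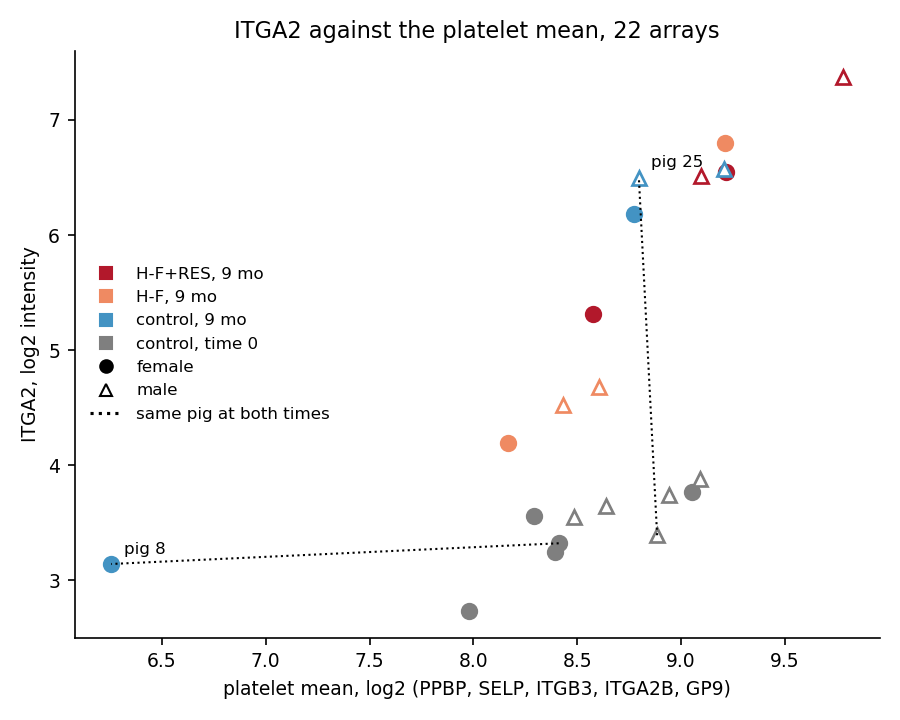
ITGA2 log2 intensity (vertical axis) against the mean log2 intensity of PPBP, SELP, ITGB3, ITGA2B and GP9 (horizontal axis) on the 22 arrays, coloured by condition, with females as filled circles, males as open triangles and dotted lines joining the arrays of pigs 8 and 25. The ITGA2 values of time 0 all lie below 5, the level of the filter on low values, and most arrays of 9 months lie above them at a like platelet mean.

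The fibrinogen receptor subunits were also set against each other within each array. ITGB3 minus ITGA2B was 0.59 ± 0.24 log2 units in H-F+RES pigs (SD, n = 4), 0.59 ± 0.23 in H-F pigs (n = 4), 0.05 ± 0.67 in controls at 9 months (n = 4) and -0.67 ± 0.42 at time 0 (n = 10). Without female 8, whose value was -0.89, the controls of 9 months averaged 0.36 ± 0.29 (n = 3). With all arrays, ITGB3 differed by 0.15 ± 0.45 in controls of 9 months against time 0 (limma, adjusted p = 0.827). Without her, ITGB3 rose by 1.02 ± 0.27 (adjusted p = 0.00722), while ITGA2B differed by -0.03 (adjusted p = 0.957). That fit called 4867 of all 17240 probe sets. In male 25 ITGB3 differed by 0.84 and ITGA2B by -0.47 between 9 months and time 0. The values of the controls overlapped between the times, at -0.89 to 0.55 at 9 months and -1.03 to 0.08 at time 0, and the difference between the subunits was not tested.

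SPARC at 9 months was at 6.95, 6.93, 7.09 and 6.85 in the controls, above all 10 values of time 0, 6.56 to 6.85, a separation of groups that 15.2% of all probe sets showed in 1 direction or the other. SPARC encodes a collagen-binding matricellular protein held in alpha granules. Without control male 16 its adjusted p was 0.0762. Its second probe set (Ssc_1458_3_A1_a_at) behaved differently, with r = 0.104 between the pair over 22 arrays. That probe set was at 7.80, 4.34, 5.41 and 5.09 in H-F+RES pigs, 8.36, 4.90, 9.06 and 5.86 in H-F pigs, 3.73, 6.84, 5.54 and 4.29 in controls at 9 months, and between 4.37 and 6.90 at time 0. The arrays of H-F male 23, H-F female 27 and H-F+RES female 21 stood above all others on it.

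Array quality differed between the times as well. The poly-A spike-in controls, RNAs added during labelling, averaged 9.38 ± 0.80 on the 12 arrays of 9 months and 7.98 ± 0.62 on the 10 of time 0 (SD), and the actin 3' minus 5' difference 2.06 ± 0.61 and 1.42 ± 0.50. Erythroid markers averaged 8.83 ± 0.69 in controls at 9 months and 10.23 ± 0.59 at time 0, with 4 of 4 called lower, and T cell markers 10.88 ± 0.08 and 11.37 ± 0.12, with 4 of 6 called lower. The B cell marker was at 9.58 ± 0.41 and 10.28 ± 0.26, and NK and cytotoxic markers at 9.03 ± 0.29 and 9.50 ± 0.21. Their part in the differences of the members was not tested. With the spike-in level as a covariate ITGA2 differed by 2.09 ± 0.61 (adjusted p = 0.0156), again a description, since its values of time 0 are all dim. With that covariate SPARC and the dim THBS1 probe set were no longer called (adjusted p = 0.107 and 0.139). Without control female 8 the adjusted p of that THBS1 probe set was 0.0932. Age, time on the diet and time of processing cannot be told apart in this comparison.

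THBS1 encodes thrombospondin 1, the adhesive glycoprotein that platelets release from alpha granules and that monocytes also make. Its brightest probe set had r = 0.117 with the platelet mean over 22 arrays, and the other 4 had r = 0.363, 0.386, 0.388 and 0.562. At 9 months its brightest probe set was at 8.20 at the lowest, 9.54 at the median and 10.01 at the highest in the 6 females, against 10.12, 10.58 and 11.11 in the 6 males. The next brightest (Ssc_924_3_A1_at) was at 7.03, 8.21 and 8.74 in females, against 9.10, 9.71 and 10.31 in males. Every female lay below every male on both.

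By the test, limma called 2 of the 15 member probe sets for females against males at 9 months, both of THBS1 and both lower in females, whereas 6.01% of all probe sets were called in either direction. Ssc_924_2_A1_at fell by 1.19 ± 0.24 on the log2 scale in females (adjusted p = 0.00874), a 2.29-fold difference, and Ssc_924_3_A1_at fell by 1.53 ± 0.29 (adjusted p = 0.00667), 2.88-fold. Their adjusted p stayed between 0.00728 and 0.0357 and between 0.00161 and 0.0273 under all 21 alternatives run. The other 3 THBS1 probe sets differed by -0.48, -0.75 and -1.15, each below the call (adjusted p = 0.0679, 0.0722 and 0.135). Females lay wholly below males on 3 of the 5 THBS1 probe sets, a pattern that 0.458% of all probe sets showed. The third of these was the dim Ssc_924_1_A1_at, above 5 on only 5 of the 22 arrays. The 5 probe sets are of 1 gene and correlated with each other (r between 0.691 and 0.933), so they are not separate evidence.

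At time 0 the differences in THBS1 had the same sign. The brightest probe set was at 10.15, 9.76, 9.13, 11.11 and 9.95 in the 5 females, and at 10.69, 10.95, 10.80, 11.18 and 10.92 in the 5 males. Female 17, at 11.11, stood among the males, and the other 4 females lay below all males. The brightest probe set differed by -0.89 ± 0.26 (adjusted p = 0.0982) and Ssc_924_3_A1_at by -1.26 ± 0.32 (adjusted p = 0.0612). Limma called 0 members at time 0 and 1.07% of all probe sets, and 5 member probe sets, all of THBS1, had an unadjusted p under 0.05, as had 16.4% of all. Without female 17, 3 THBS1 probe sets were called at time 0, beside 368 of all 17240. A fit with 1 sex term common to all conditions also called 3 THBS1 probe sets, beside 47 of all. That term joins the arrays of both times, so it is not a test of time 0.

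**Figure D5:**
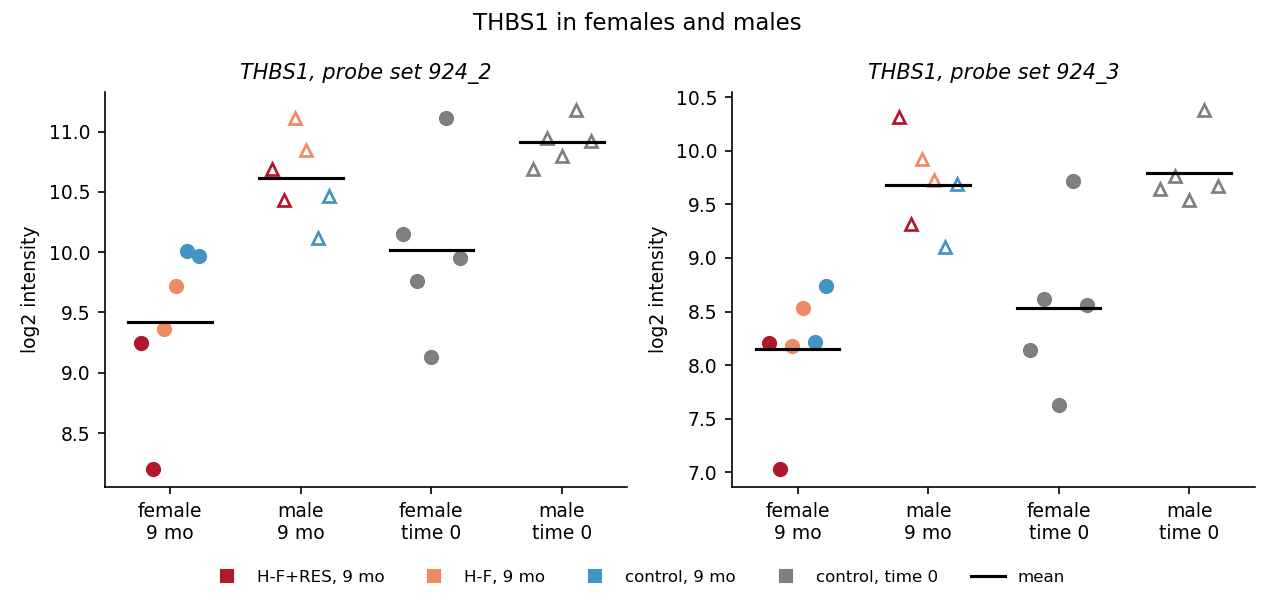
Log2 intensity of the 2 brightest THBS1 probe sets (vertical axes) in females (filled circles) and males (open triangles) at 9 months and at time 0, coloured by condition, with the mean of each group as a bar. At 9 months every female lies below every male, and at time 0 female 17 lies among the males.

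Other markers moved with sex at 9 months. Erythroid markers averaged 8.34 ± 0.40 in females and 9.78 ± 0.61 in males (SD, n = 6 each), with 3 of the 4 called lower in females. Monocyte markers averaged 9.23 ± 0.33 in females and 9.58 ± 0.33 in males, with 1 of 6 called lower, and granulocyte markers 5.51 ± 0.31 and 6.12 ± 0.33, with 2 of 5 called lower. T cell markers averaged 11.05 ± 0.12 in females and 10.82 ± 0.12 in males, with 1 of 6 called higher, and the B cell marker 10.10 ± 0.38 in females and 9.13 ± 0.39 in males. At time 0 the B cell means were 10.20 ± 0.29 in females and 10.35 ± 0.23 in males, the erythroid means 10.20 ± 0.40 in females and 10.26 ± 0.79 in males, and the monocyte means 9.46 ± 0.28 and 9.48 ± 0.16 (n = 5 each). The part of these cells in the THBS1 difference at 9 months was not tested.

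The remaining members were also lower in females at 9 months, below the call. PPBP differed by -1.19 ± 0.49, RGS18 by -0.78 ± 0.25 (adjusted p = 0.0683), SELP by -0.69 ± 0.33, ITGA2 by -0.66 ± 0.43, ITGB3 by -0.64 ± 0.40, ITGA2B by -0.44 ± 0.33, CLU by -0.72 ± 0.54 and GP9 by -0.14 ± 0.11, while SPARC differed by 0.02 ± 0.07. Part of this came with control female 8: without her PPBP differed by -0.46, SELP by -0.27, ITGB3 by -0.08 and CLU by 0.06. Without control female 18, which leaves female 8 as the only control female of 9 months, limma called 8 member probe sets, beside 1196 of all 17240. At time 0 all 10 genes were lower in females, SPARC by only 0.03 ± 0.08, with a median of -0.39, none called. Over all probe sets tested the median at time 0 was 0.007 and 51.9% were higher in females. Most members moved together between arrays, so their signs are not separate evidence.

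The test of whether a diet or time effect differed between the sexes called 0 members in all 3 cases. For H-F+RES against H-F, 0.0116% of all probe sets were called, and 0 members had an unadjusted p under 0.05, against 5.85% of all. For H-F against control it was 0.00580% of all, with 4 members (CLU, ITGA2, ITGA2B and ITGB3) and 11.7% of all at an unadjusted p under 0.05. For 9 months against time 0 in controls it was 0%, with 2 members (CLU and ITGB3) and 10.7%. For the 4 members, the differences between females and males in the effect of H-F against control were 1.98 to 3.32 log2 units, higher in females, and 0.62 to 1.25 without control female 8. Without control female 18 the control females of 9 months are the array of female 8 alone, a lone sample assumed to vary like the other groups. Then 3 members were called in each of the last 2 tests, beside 10 and 40 of all 17240 probe sets.

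How closely the members moved together was described by correlating each with the mean of the other platelet-restricted genes over the 22 arrays. SELP had r = 0.977, CLU 0.946, PPBP 0.941, ITGA2B 0.851, ITGB3 0.812 and RGS18 0.787. GP9 had 0.613, THBS1 0.117 and SPARC -0.128. Without the 2 arrays farthest from the median, control female 8 and H-F+RES male 4, SELP had 0.931, CLU 0.868, PPBP 0.838, ITGA2B 0.693, ITGB3 0.509 and GP9 0.375. The 5 THBS1 probe sets correlated with each other at r between 0.691 and 0.933. These points share the preparation of each blood sample, and some pigs are counted at both times.

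Among 8411 probe sets of other genes, those most like the platelet mean were of FHL1 (r = 0.990 over 22 arrays, and 0.988 after taking off the mean of each condition and sex), TMOD1 (0.977), FAM149A (0.970), C15H2orf88 (0.967), SMOX (0.965), TPM4 (0.964), DDAH1 (0.964), PROS1 (0.962), CALD1 (0.960) and MARCH2 (0.958). The median r of the 8411 was -0.01, and 74 reached 0.8. TMOD1, TPM4 and CALD1 encode proteins of actin filaments, and PROS1 encodes protein S, an anticoagulant plasma protein. FHL1 averaged 10.89, and stood at 8.07 in control female 8 at 9 months against 10.13 or more elsewhere. CALD1 was at 4.28 and PROS1 at 4.59 on that array, against at least 8.25 and 7.70 on the others. The genes were chosen by likeness over arrays that include this one, so their low values on it are not separate evidence. Without that array FHL1 still ranked first (r = 0.973), CALD1 was at rank 12 and PROS1 at rank 17. The 10 genes kept r between 0.897 and 0.973.

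Of 27 further genes that blood expresses mainly in platelets and megakaryocytes, 9 were on the array and 7 passed the filter. GNG11, a G protein gamma subunit, was at 8.41 in control female 8 at 9 months and at 10.08 or more on the other 21 arrays. RAB27B, a GTPase of granule release, was at 4.42 against at least 6.55, SH3BGRL2 at 5.92 against 6.51, and CAVIN2, a caveolar coat protein, at 3.08 against 4.44. P2RY12, the platelet ADP receptor, was at 4.29 against 4.58, and ESAM, an adhesion molecule, at 5.55 against 5.55. VWF, von Willebrand factor, was not low there (5.90 against 5.72). In the tests, 1 probe set of VWF rose between time 0 and 9 months in controls by 0.27 ± 0.10 (adjusted p = 0.0499), and limma called none of the 14 probe sets of this list in the 3 diet comparisons or between the sexes. At an unadjusted p under 0.05 there was 1 for H-F+RES against H-F (6.63% of all probe sets). There were 0 for H-F against control (9.06% of all) and 3 for H-F+RES against control (3.85% of all). For the sexes there were 6 at 9 months, beside 3755 of all 17240, and 2 at time 0, beside 16.4% of all.

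Of 35 genes that platelets share with leukocytes, 19 were on the array and 18 passed the filter. Between 9 months and time 0 in controls, 8 of their 30 probe sets tested were called higher and 2 lower, beside 35.0% of all probe sets called. These were of 6 genes that rose, some of them given next, and 2 that fell. LYN, a Src-family kinase, rose by 0.91 ± 0.09 on the probe set with the larger rise, ACTN1, an actin cross-linker, by 0.87 ± 0.12, TIMP1, a metalloproteinase inhibitor, by 0.67 ± 0.20 and the tetraspanin CD9 by 0.52 ± 0.20. VAMP8, a granule fusion protein, fell by 0.46 ± 0.08, and ITGB1, the beta subunit that pairs with ITGA2, fell by 0.33 ± 0.09. In females at 9 months TBXAS1, thromboxane synthase, fell by 0.56 ± 0.14 relative to males, and the granule membrane protein CD63 fell by 0.35 ± 0.10. A list of 5 genes of other cells, taken as possible partners of the members, had 2 on the array. Between females and males at 9 months, CD47, a receptor for thrombospondin 1, differed by -0.25 ± 0.06 on 1 of its probe sets (limma, adjusted p = 0.032). CD93, a cell surface lectin, differed by 0.35 ± 0.10 (adjusted p = 0.0427), and its binding to a member was not examined. No gene of this list was called for diet or time.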

How the data were processed

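The deposited values are intensities on a linear scale, 1 per probe set and array. GCOS, RMA and Affymetrix Expression Console 1.1 are named in the submitters' processing notes. RNA was labelled in 1 cycle with biotin, per the labels' protocols. All 22 columns were used. Here each intensity was floored at 1 and converted to log2, and control probe sets were set aside, apart from 36 spike-in probe sets used as a covariate in an alternative. Symbols came from the array's platform annotation.

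Probe sets with log2 above 5 in at least 2 arrays were fitted with limma 3.58.1 in R 4.3.3 (statmod 1.5.0 for blocks) and tested two-sided with Benjamini-Hochberg adjustment. Diets and times were compared with condition plus an additive sex term, sexes and their interactions with 8 group means, over all 22 arrays. The script was tested on simulated data. The number of arrays limits the precision. Pigs 8 and 25 are the same animals at both times per their labels. With pig as a block the consensus correlation was -0.1756, or -0.0181 with 8 group means. Every member probe set was named, with the 10 genes most like the platelet mean and 3 lists of other platelet and partner genes. Members and lists were chosen with earlier results of these data known. Alternatives were the filter, the offset, normalization, design, arrays used, array weights, spike-in level, pig as a block, and leaving out each array. Raw scans were not analysed here, and the dates of processing are not given in the sources used here.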

Additional observations from a re-analysis of the deposited data

Results flagged for a closer look

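Each group was searched for a value far from its other arrays, by a rule with a nominal chance rate of about 1 in 20, not measured here. Of the values of the members and of the platelet mean, 11 lay far from the other 3 arrays of their group. These came from 68 combinations of group and measure examined. Of the 11 values, 6 belong to control female 8 at 9 months: CLU at 5.13 (the others 9.72 to 10.49), PPBP at 4.97 (9.33 to 9.37), ITGB3 at 6.42 (9.82 to 10.30), SELP at 5.37 (7.82 to 8.24), ITGA2 at 3.14 (6.18 to 6.57) and the platelet mean at 6.26 (8.77 to 9.20). These 6 are not independent, since they come from 1 array and the mean contains 3 of the genes.

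Another 3 belong to H-F female 30, all high: CLU at 10.62 (the others 9.19 to 9.27), ITGA2B at 9.87 (8.78 to 8.95) and the dim ITGA2 probe set at 3.76 (3.41 to 3.44). GP9 was high in H-F+RES male 4, at 7.92 (7.35 to 7.43), and the dim ITGA2 probe set in control male 16 at 9 months, at 4.22 (3.30 to 3.42).

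For the brightest THBS1 probe set the H-F pigs lay on opposite sides of the controls of 9 months in the 2 sexes. The log2 difference was -0.45 in females and 0.68 in males, with every pig of a sex on its side. The test of that difference between the sexes gave an adjusted p of 0.439 (limma), so it did not pass. On the next brightest (Ssc_924_3_A1_at) the females overlapped, at 8.18 and 8.53 in H-F pigs and at 8.74 and 8.22 in controls. For the THBS1 probe sets other than the brightest, the difference between the sexes ran from -0.55 to 0.17 log2 units, none called.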

How the results depend on the processing

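Limits are the number of arrays, the array of control female 8 at 9 months, and the dim values of ITGA2 at time 0. For 69 of the member differences 1318 refitted values were compared. Of these, 1249 kept sign and side of the threshold, 16 gained a call, 5 lost one and 48 changed sign, none of the 48 with a call. Over all 90 tested member differences in the 6 comparisons of diet, time and sex, 84 of 1698 refitted values had the other sign. The largest reported difference that changed sign was 0.992 in size. The cause was not tested except where an array was left out.

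The count of members called for 9 months against time 0 was 1 with the spike-in covariate in place of 3. An additive sex term over all arrays, which does not separate the times, gave 3. For the sexes at time 0 the count was 0, and 0 to 3 leaving out 1 array. At 9 months it was 2 to 8 leaving out 1 array, and for the sex difference in the H-F effect and in the time effect 0 to 3 each. The platelet mean differed by -0.274 to 0.619 for H-F against control, by 0.290 to 1.183 for H-F+RES against control and by -0.633 to 0.260 for 9 months against time 0, with -0.274, 0.290 and 0.260 for the fits without control female 8. The 8 calls at 9 months and the 3 of both sex differences came without control female 18, and the 3 calls at time 0 without female 17. With pig as a random block the counts were 3 for time, 2 for sex at 9 months and 0 elsewhere. That fit uses 1 correlation for all probe sets, and it was negative (-0.1756, or -0.0181 with 8 group means). Only pigs 8 and 25 have arrays at both times, so it is not a paired test of them. ITGA2 differed by 2.13 with the block (adjusted p = 0.0027), a description given its dim values at time 0. The block changed no other call.

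Some small differences changed sign in fits that kept all arrays. GP9 was at -0.047 with array weights, -0.021 with quantile normalization and -0.062 with the spike-in covariate for H-F+RES against H-F, and at 0.038, 0.004 and 0.052 for H-F against control. With the covariate it was 0.051 for 9 months against time 0. Array weights gave RGS18 -0.113 and SPARC 0.030 for H-F against control, and RGS18 0.052 for 9 months against time 0. The additive sex term, fitted over both times, gave SPARC -0.005 in place of 0.019 for the sexes at 9 months.

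Leaving out 1 array gave, for H-F against control, CLU -0.395 to 1.327, PPBP -0.270 to 1.287, ITGB3 -0.290 to 0.929, SELP -0.226 to 0.668, ITGA2B -0.488 to 0.386, RGS18 -0.159 to 0.246, THBS1 -0.082 to 0.254, GP9 -0.095 to 0.082 and SPARC -0.067 to 0.031. For 9 months against time 0 it gave CLU -1.511 to 0.210, PPBP -1.451 to 0.106, SELP -0.738 to 0.156, ITGB3 -0.195 to 1.024, RGS18 -0.292 to 0.113 and GP9 -0.134 to 0.043. GP9 ran from -0.114 to 0.088 for H-F+RES against H-F and from -0.123 to 0.087 for H-F+RES against control. For females against males SPARC ran from -0.069 to 0.003 at time 0 and from -0.021 to 0.059 at 9 months, and CLU from -1.488 to 0.055 at 9 months.

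Over all probe sets, counts of calls moved by over 1.5 times in places. H-F against control gave 0, but 18 with 8 group means, 68 with array weights and 18 without control female 8. The sexes at time 0 gave 184, but 43 with arrays of that time alone, 56 with the covariate, and 38 to 395 leaving out 1 array. The sexes at 9 months gave 1036, and 319 to 1441 leaving out 1 array. The additive sex term, 1 fit for both times, gave 47. The sex differences in the diet and time effects ran to 54, 154 and 40 leaving out 1 array.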
